A study of Homo sapiens with 16 samples.

Results

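The genes described here encode the subunits of the 5 oxidative phosphorylation complexes. Members were the protein-coding rows of the raw count table whose symbol carries a subunit prefix of complex I (NDUFA, NDUFB, NDUFC, NDUFS or NDUFV with a number), complex II (SDHA to SDHD), complex III (UQCR), complex IV (COX4 to COX8) or complex V (ATP5), together with the MT-ND, MT-CO, MT-CYB and MT-ATP genes of mitochondrial DNA. The rule found 102 of 60603 rows, of which 89 are nuclear genes and 13 are mitochondrial genes. The nuclear members comprise 39 of complex I, 4 of complex II, 9 of complex III, 17 of complex IV and 20 of complex V, and the mitochondrial members comprise 7, none, 1, 3 and 2 in the same order. The rule itself uses no measured value, although members were chosen with earlier results of these data known. RNA was sequenced from 2 established human leukaemia lines: SKNO-1, which carries the RUNX1-RUNX1T1 fusion of acute myeloid leukaemia, and U-937, a monocytic line. Each line received for 24 h either the solvent DMSO, ATRA (all-trans retinoic acid) at 0.1 µM, Corin (a dual inhibitor of LSD1 and of histone deacetylases in the CoREST complex) at 0.1 µM, or both agents at those doses, with 2 libraries in each of the 8 groups and 16 in all. Both lines grew in RPMI1640 with fetal bovine serum, and the SKNO-1 medium alone also held GM-CSF, so line and medium cannot be told apart. The labels do not say that the 2 libraries of a group came from separate cultures, and p-values then measure only the spread between these samples, which may be technical. In bulk RNA, fewer cells of a kind and less RNA per cell cannot be told apart.

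Oxidative phosphorylation couples electron flow to ATP synthesis across the inner mitochondrial membrane. Complexes I and II pass electrons to ubiquinone, complex III passes them on to cytochrome c, complex IV reduces oxygen, and complex V, the ATP synthase, uses the proton gradient that complexes I, III and IV build. Complex II is wholly encoded in the nucleus and also works in the tricarboxylic acid cycle, whereas the other complexes combine nuclear subunits with subunits encoded by mitochondrial DNA. Mitochondrial genes are transcribed from both strands as long polycistronic RNAs that are cut into shorter messages, and MT-ND6 is the 1 protein-coding gene of the light strand. Nuclear subunit genes are transcribed singly, and many have promoter sites for NRF1 and for ETS-family factors such as GABP.

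Promoter sequence was taken from RefSeq (build GRCh38.p14), in which 72 of the 89 nuclear members (80.9%) had an entry. In the 250 bases before the start, the NRF1 core GCGCATG, whose reverse complement reads CATGCGC, was present in 12 of those 72 members (16.7%) and in 1081 of 27305 promoters of the table (3.96%). The ETS core CCGGAAG, whose reverse complement reads CTTCCGG, was present in 17 of 72 members (23.6%) and in 2407 promoters of the table (8.82%). ATP5PF, COX5B, COX6A1, SDHB and SDHD held both cores, and the 2 cores share no overlapping letters in the windows printed here. Shown are 3 members with both cores that fell in both lines with both agents, SDHB, ATP5PF and COX6A1. They do not stand for all members with both cores. With both agents in U-937, SDHD was not called, and COX5B had 2118 and 2029 unscaled counts against 2465 and 1990 with DMSO. Also shown are ATP5MC1 and NDUFC1, the nuclear members with the largest fall and the largest rise there, whose windows held neither core. Each window is given 5′ to 3′ on the strand of its gene, with the matched cores in capitals: SDHB at chr1:17054033-17054282 (minus strand), ATP5PF at chr21:25735055-25735304 (minus), COX6A1 at chr12:120437863-120438112 (plus), ATP5MC1 at chr17:48892537-48892786 (plus) and NDUFC1 at chr4:139302552-139302801 (minus).
SDHB: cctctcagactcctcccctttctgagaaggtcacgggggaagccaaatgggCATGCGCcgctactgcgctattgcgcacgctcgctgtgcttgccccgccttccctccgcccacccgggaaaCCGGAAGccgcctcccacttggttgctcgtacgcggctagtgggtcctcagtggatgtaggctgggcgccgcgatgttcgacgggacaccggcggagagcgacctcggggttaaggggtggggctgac
ATP5PF: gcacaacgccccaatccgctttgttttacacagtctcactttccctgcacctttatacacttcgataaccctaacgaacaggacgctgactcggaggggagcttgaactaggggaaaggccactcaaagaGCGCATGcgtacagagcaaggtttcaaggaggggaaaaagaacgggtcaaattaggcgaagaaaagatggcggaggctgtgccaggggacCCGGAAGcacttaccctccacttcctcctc
COX6A1: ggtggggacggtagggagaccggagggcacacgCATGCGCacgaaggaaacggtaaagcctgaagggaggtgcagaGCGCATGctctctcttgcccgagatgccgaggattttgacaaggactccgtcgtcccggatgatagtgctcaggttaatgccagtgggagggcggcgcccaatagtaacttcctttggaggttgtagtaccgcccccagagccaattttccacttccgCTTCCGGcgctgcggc
ATP5MC1: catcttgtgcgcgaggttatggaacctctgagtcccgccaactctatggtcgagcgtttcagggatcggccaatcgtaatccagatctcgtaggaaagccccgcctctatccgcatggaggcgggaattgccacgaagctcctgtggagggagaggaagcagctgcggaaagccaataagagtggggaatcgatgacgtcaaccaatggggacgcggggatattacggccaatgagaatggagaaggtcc
NDUFC1: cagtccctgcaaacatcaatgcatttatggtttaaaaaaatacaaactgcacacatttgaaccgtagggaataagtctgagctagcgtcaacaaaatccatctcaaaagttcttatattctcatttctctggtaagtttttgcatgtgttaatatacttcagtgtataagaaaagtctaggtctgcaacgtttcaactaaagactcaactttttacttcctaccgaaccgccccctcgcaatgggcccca
A match to these letters is a description and not a bound site. Of the matched members lower with both agents in SKNO-1, 7 of 36 held the NRF1 core and 12 of 36 the ETS core, against 5 and 5 of 29 that were tested and not called. In U-937 the counts were 5 and 7 of 31 lower members against 7 and 8 of 28 not called, so the cores were not more frequent among the lower members there.

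Library totals ranged from 28.4 to 37.8 M estimated counts. Mitochondrial members took 1.03 to 1.56% and nuclear members 0.702 to 0.992% of them. RUNX1T1 was at 92.0 to 148 CPM (counts scaled to library size) in SKNO-1 and at most 0.034 in U-937, while HOXA9 and HOXA10 were at 0 in SKNO-1 and reached 70.7 and 91.2 CPM in U-937. The 2 SKNO-1 DMSO libraries stood apart from each other. The standard deviation (SD) of their log2 difference over genes was 0.345, against 0.109 to 0.193 in the other pairs, and that difference correlated with gene GC content (r = 0.78 across 9505 genes, which are not independent replicates). Between these 2 libraries the nuclear members' median was higher in replicate 1 by 0.16 and the mitochondrial median lower by 0.30 on the log2 scale, so each SKNO-1 comparison is given below with and without them where that matters. The U-937 DMSO libraries differed by 0.53 in the mitochondrial median, with replicate 1 higher. TPM, which also divide by transcript length, are used only for levels within a library, because 4 short RNAs (RN7SL1, RN7SL2, RN7SK and SNORD3A) took 35.3 to 51.8% of the TPM total and moved its scale between groups. Values compared between groups are CPM scaled by the trimmed mean of M-values (TMM) within each line.

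Among the messages of DMSO cells, the mitochondrially encoded complex IV subunits were the most abundant members per length. MT-CO3 averaged 3909 TPM in SKNO-1 and 5905 TPM in U-937, and MT-CO1, the catalytic subunit, 3574 and 4190 TPM. MT-ND6 was the lowest mitochondrial member, at 25.3 and 12.9 TPM. The highest nuclear members were UQCRH, the hinge protein of complex III, at 697 TPM in SKNO-1, and ATP5F1B, the catalytic β subunit of the F1 head, at 564 TPM in U-937. The nuclear median was 83.7 TPM in SKNO-1 and 107 TPM in U-937, and 43 and 48 of the 89 nuclear members stood at 100 TPM or more. These TPM rank members within a line and do not compare the lines. Tested between untreated lines on scaled counts, 24 nuclear members were higher in U-937 and 34 lower. These are 28.9% and 41.0% of the nuclear members tested, where 31.7% and 33.1% of all genes were higher and lower. The median log2 difference of the nuclear members was -0.19, against -0.01 over all genes. Both lines used the ubiquitous isoforms: COX4I1 stood at 359 and 331 TPM and COX6B1 at 334 and 424 TPM, whereas the tissue isoforms COX6A2, COX7A1 and COX7B2 had no counts in any library. COX4I2 had no counts in SKNO-1 and 11 in all over the 8 U-937 libraries. COX8C, a testis isoform of subunit 8 (chr14:93347182-93348356, plus strand), was at 2.25 to 3.79 CPM in every U-937 library and at 0 to 0.06 CPM in SKNO-1, while its ubiquitous partner COX8A stood at 167 and 134 TPM in the DMSO cells of U-937 and SKNO-1. NDUFA4L2, a paralogue of NDUFA4 known as hypoxia-inducible, averaged 0.225 TPM in SKNO-1 and 0.965 TPM in U-937 with DMSO. After a filter on low counts, 95 of the 102 members were tested in each line, 82 nuclear and all 13 mitochondrial. The members not tested were NDUFC2-KCTD14, COX4I2, COX6A2, COX6B2, COX7A1 and COX7B2 in both lines, COX8C in SKNO-1 (8 counts in 8 libraries) and ATP5MGL in U-937 (32 counts).

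In U-937, both agents together lowered the messages of 5 of the 7 mitochondrial complex I genes and raised those of 2 of the 3 complex IV genes. MT-ND1 (chrM:3307-4262, plus strand) stood at 245 and 164 CPM with DMSO and at 51.5 and 43.9 CPM with both agents. MT-ND2 stood at 284 and 196 CPM with DMSO and at 61.9 and 54.2 with both agents. The treated libraries lay below both DMSO libraries for each gene. MT-ND1 fell by 2.10 ± 0.20 (SE) on the log2 scale (adjusted p = 2.70e-05 from the edgeR quasi-likelihood test, adjusted over all genes by Benjamini-Hochberg as for each p labelled edgeR below) and MT-ND2 fell by 2.05 ± 0.20 (adjusted p = 2.43e-05, edgeR). MT-ND4L fell by 1.92 ± 0.24, MT-ND5 by 1.84 ± 0.32 and MT-ND4 by 1.65 ± 0.22. MT-CYB, the mitochondrial subunit of complex III, fell by 1.08 ± 0.16 from 291 and 208 CPM to 124 and 112 CPM. MT-ATP6, the membrane proton channel subunit of complex V, fell by 0.95 ± 0.15 from 487 and 329 CPM to 217 and 207 CPM, and MT-ATP8 fell by 0.56 ± 0.16.

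Of the 3 complex IV genes, 2 were higher in the same libraries. MT-CO3 (chrM:9207-9990, plus strand) stood at 4165 and 4046 CPM with DMSO and at 4989 and 5619 CPM with both agents, with no overlap, and rose by 0.37 ± 0.13 on the log2 scale (adjusted p = 1.65e-02, edgeR). MT-CO2 rose by 0.30 ± 0.11, from 910 and 822 to 1015 and 1111 CPM. MT-CO1 was not called, with 6650 and 5641 CPM with DMSO and 4781 and 5274 CPM with both agents (log2 change -0.29, adjusted p = 0.0629, edgeR), although its treated libraries lay below both DMSO libraries. MT-CO1 was called lower with library totals as the scale (-0.42), no low-count filter (-0.33), DESeq2 (-0.30), the GC trend removed (-0.28) or only the 4 libraries compared (-0.32), and without either Corin library or both-agent replicate 2 (-0.37 without the last). MT-ND3 (161 and 138 against 155 and 184 CPM) and the light-strand gene MT-ND6 (5.32 and 5.84 against 5.15 and 5.50 CPM) overlapped with DMSO and were not called. In all, 8 of 13 mitochondrial members were lower and 2 higher, where 32.2% and 33.1% of all 17717 genes tested were lower and higher. The mitochondrial median change was -0.95, against 0.03 over all genes. Without U-937 DMSO replicate 1, MT-ATP8 was no longer called (log2 change -0.24). Without both-agent replicate 2, neither MT-ND5 (adjusted p = 0.052, edgeR), MT-CO2 (log2 change 0.22) nor MT-CO3 (0.27) was called, and MT-CO3 was also lost without either DMSO library and MT-CO2 without DMSO replicate 2 or without either ATRA library.

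ATRA alone in U-937 lowered 5 of the 8 mitochondrial members that fell with both agents. MT-ND1 stood at 106 and 89.0 CPM, below both DMSO libraries and above both combination libraries, and fell by 1.06 ± 0.19 on the log2 scale (adjusted p = 2.70e-03, edgeR). MT-ND2 fell by 1.04 ± 0.19, MT-ND4 by 1.03 ± 0.21, MT-ND4L by 0.99 ± 0.23 and MT-ATP6 by 0.58 ± 0.15. MT-ND5 changed by -0.97 and was not called (adjusted p = 0.0677, edgeR), and MT-CYB (-0.35), MT-ATP8 (-0.37), MT-CO2 (0.08) and MT-CO3 (0.14, at 4529 and 4492 CPM) were not called either. DESeq2 called 8 members lower, MT-ND5, MT-CYB and MT-CO1 (-0.27) among them. The difference between both agents and ATRA alone was not tested. These 5 lower members of 13 compare with 20.1% of all genes lower with ATRA. The MT-ATP6 call was lost without DMSO replicate 1 (log2 change -0.27), and the MT-ND4L call without either both-agent library. All 5 were lost when only the 4 DMSO and ATRA libraries were fitted, with MT-ND1 at -1.07. Corin alone gave 0 calls among the 13 in edgeR and 1 lower call in DESeq2, where edgeR called 4.4% of all genes lower and 8.55% higher. At an unadjusted p under 0.05 (edgeR) were 3 of the 13 and 4551 of all 17717 genes. MT-ND1 stood at 138 and 155 CPM and MT-ND4 at 569 and 700 CPM with Corin, below both DMSO libraries (1139 and 734 CPM for MT-ND4). The count of mitochondrial members called lower with Corin depended on DMSO replicate 2.

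In SKNO-1, no mitochondrial member was called lower with all 8 libraries. MT-ND1 stood at 133 and 170 CPM with DMSO, 128 and 112 with ATRA, 139 and 152 with Corin and 181 and 130 with both agents, so that the DMSO and combination libraries overlapped. MT-ND3 rose with Corin by 0.28 ± 0.05 (adjusted p = 4.76e-03, edgeR), from 239 and 237 CPM to 298 and 280 CPM, and with both agents by 0.24. MT-CO3 rose with Corin by 0.25, from 2964 and 3208 to 3786 and 3577 CPM. Without Corin replicate 1 neither Corin call was made (log2 changes 0.23 and 0.21), and the MT-ND3 call with both agents was lost without either of those libraries. Thus 2 of 13 members were higher with Corin and 1 with both agents, where 20.5% and 24.7% of all 17479 genes tested were higher. ATRA gave 0 calls among the 13 in edgeR and in DESeq2, where edgeR called 2.96% of all genes higher and 3.79% lower. At an unadjusted p under 0.05 (edgeR) were 2 of the 13 and 3173 of all 17479 genes. With ATRA, 12 of the 13 changes were negative (median -0.30, against 0.01 over all genes). Mitochondrial genes are cut from shared long RNAs, so these are not independent observations. Without DMSO replicate 1, ATRA lowered MT-CO1 (-0.23), MT-CO2 (-0.17), MT-CO3 (-0.19) and MT-ATP8 (-0.37). Without DMSO replicate 2 it lowered MT-ND6 (-0.37) and MT-ATP8 (-0.39), and with no low-count filter it lowered 7 members. The difference between lines in the effect of both agents was itself tested over all 16 libraries: 7 of 13 mitochondrial members had a lower effect in U-937, with 22.7% of all genes. The difference was -2.09 ± 0.31 for MT-ND1 (adjusted p = 2.30e-04, edgeR), -1.97 for MT-ND2, -1.91 for MT-ND4L, -1.76 for MT-ND5, -1.67 for MT-ND4, -0.94 for MT-CYB and -0.92 for MT-ATP6.

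**Figure D1:**
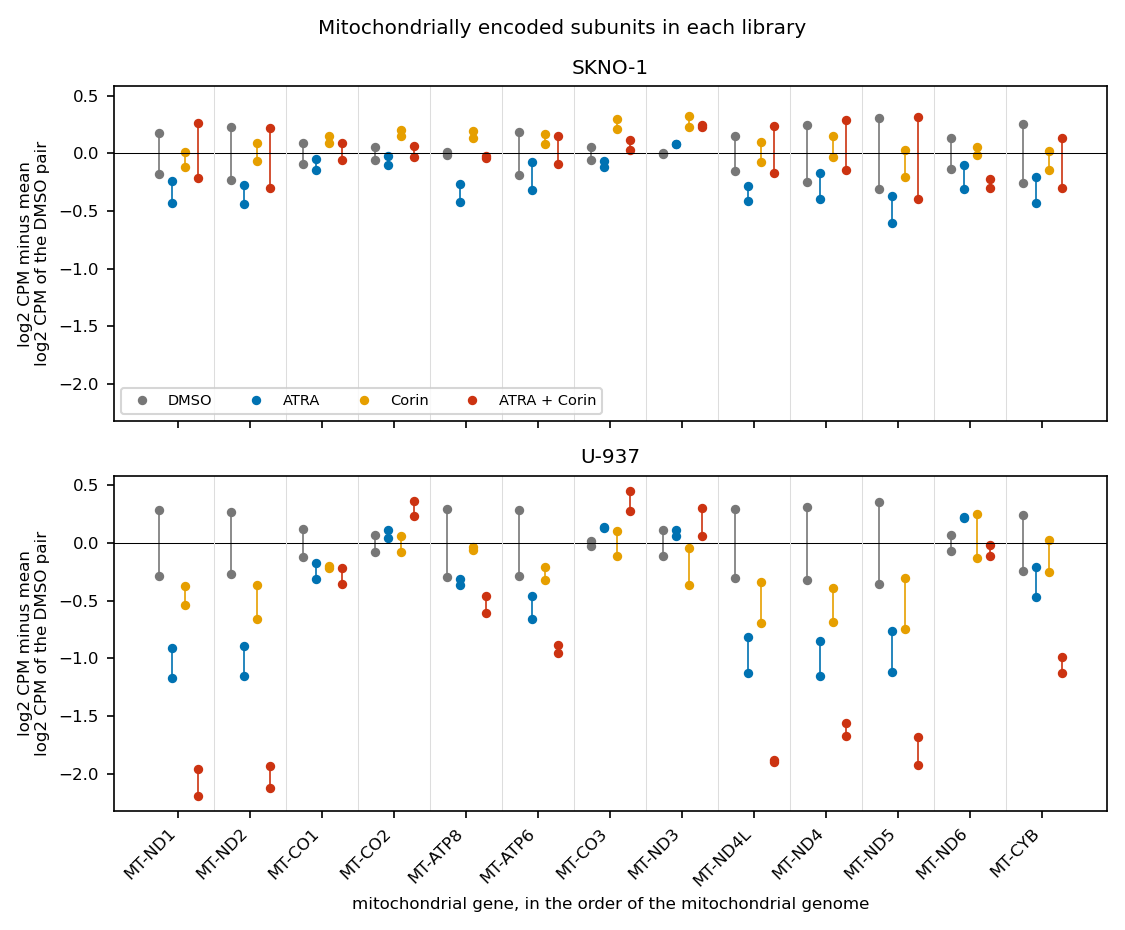
Log2 CPM of the 13 mitochondrial members in each library, minus the mean of the 2 DMSO libraries of the same line, by treatment in SKNO-1 and U-937. Each point is 1 library and lines join the 2 libraries of a group; in U-937 with both agents MT-ND1, MT-ND2, MT-ND4, MT-ND4L and MT-ND5 lie far below DMSO while MT-CO2 and MT-CO3 lie above it, and in SKNO-1 the DMSO libraries themselves are spread.

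Several of these rows cannot be fully separated by counting. MT-ND4L overlaps MT-ND4 and MT-ATP8 overlaps MT-ATP6, so the members of each pair are not independent in the counts of members above. The sources used here do not say whether strand was used in counting. The table also holds 394 rows named as nuclear copies of mitochondrial genes, which took 0.333 to 0.604% as many counts as the mitochondrial members. MTND2P28, 98.37% identical to MT-ND2, held 5.53 to 8.01% of the counts of that pair, and MTATP6P1, 98.53% identical to MT-ATP6, held 7.93 to 10.9%, so the values of MT-ND2 and MT-ATP6 are uncertain by about those shares. The ratio of MT-CO3 to MT-ND1 within a library needs no scaling between libraries, and was taken because of the values above. In TPM it was 21.3 and 30.9 in U-937 with DMSO, 53.2 and 63.2 with ATRA, 40.0 and 30.7 with Corin and 121 and 160 with both agents. In SKNO-1 it ranged from 23.1 to 34.0 over the 8 libraries. The 3 MT-CO genes made up 72.9 and 78.1% of mitochondrial member TPM in U-937 with DMSO and 87.0 and 87.9% with both agents, against 77.0 to 79.6% across SKNO-1.

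The nuclear members were lower more often than higher wherever Corin was given to SKNO-1 and wherever ATRA was given to U-937. In SKNO-1, Corin lowered 38 of 82 tested nuclear members and raised 1, where 17.3% of all genes were lower and 20.5% higher. Both agents lowered 44 and raised 2 (COX7A2L, and NDUFA4L2 at 0.35 and 0.24 CPM with DMSO and 0.87 and 0.87 CPM with both agents), where 22% were lower and 24.7% higher. The nuclear median change was -0.29 in each case, against 0.00 and 0.06 over all genes. ATRA alone gave 0 calls among the nuclear members in edgeR and in DESeq2, where edgeR called 2.96% of all genes higher and 3.79% lower. At an unadjusted p under 0.05 (edgeR) were 5 of the 82 and 3173 of all 17479 genes. In U-937, ATRA lowered 20 of 82 and raised 10, Corin lowered 3 and raised 1, and both agents lowered 38 and raised 10. The corresponding shares of all genes lower and higher were 20.1% and 21.7%, 4.4% and 8.55%, and 32.2% and 33.1%. The U-937 nuclear medians were -0.13, -0.06 and -0.28, against 0.02, 0.00 and 0.03 over all genes. The U-937 share lower with ATRA and with Corin was thus near that of all genes.

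Some of these counts depended on single libraries. The 2 SKNO-1 DMSO libraries differed over genes in general, as given above, and the shares of all genes called in these refits are not given here. The counts that follow therefore show dependence on a library and not a result about the members. Without SKNO-1 DMSO replicate 2, whose nuclear members were lower than those of replicate 1, Corin lowered 67 nuclear members, both agents 68, and ATRA 40. Without DMSO replicate 1, ATRA raised 20 and both agents raised 19. Without Corin replicate 1 or 2, Corin lowered 25 or 17. In U-937, 11 nuclear members were lower with ATRA without either DMSO library and 10 or 12 without ATRA replicate 1 or 2, whereas the count lower with both agents stayed between 33 and 44. The higher count with both agents in U-937 was 5 without both-agent replicate 2. Scaling by library totals alone gave 35 lower with ATRA in U-937.

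**Figure D2:**
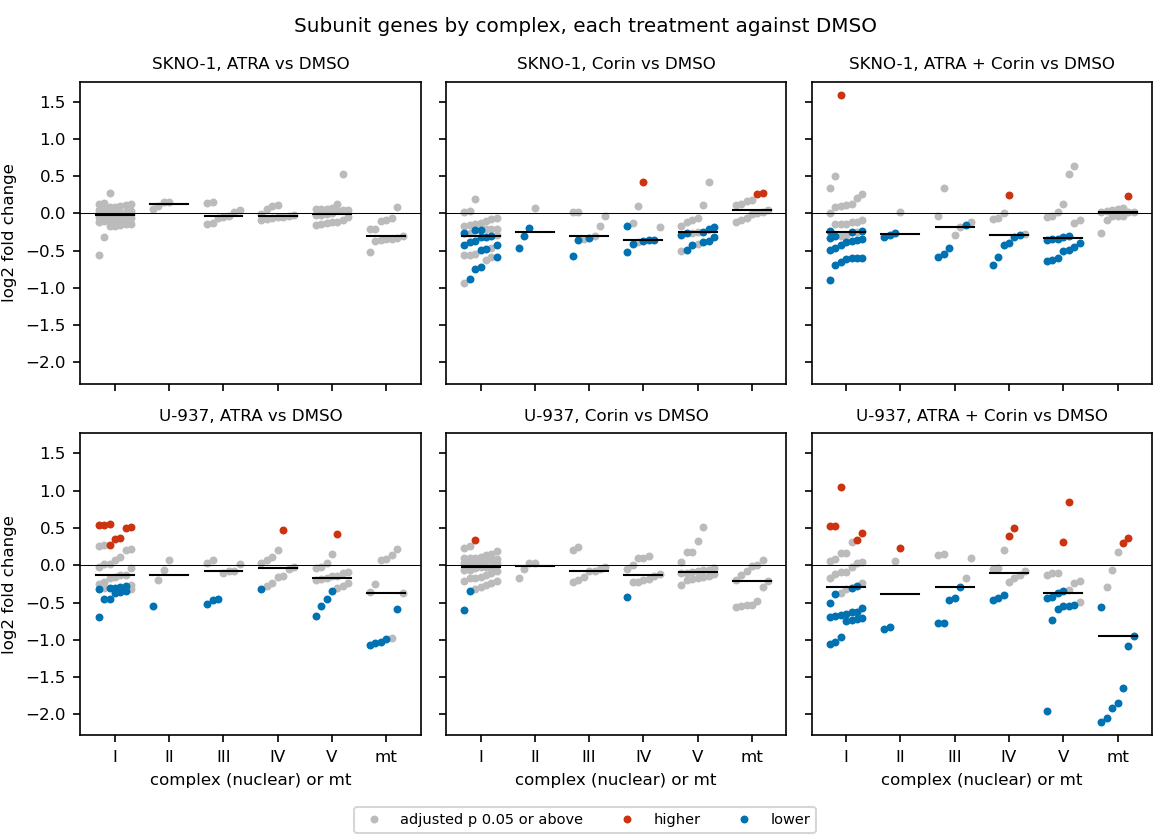
Log2 fold change against DMSO of each tested member, by complex for nuclear genes and as 1 class for mitochondrial genes, in the 6 comparisons. Red points were called higher and blue points lower at an adjusted p under 0.05, grey points were not called, and black bars are medians; every nuclear complex has its median below 0 in SKNO-1 with Corin and with both agents, and the mitochondrial median lies at -0.95 in U-937 with both agents.

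Complex II, the succinate dehydrogenase, has 4 subunits. The flavoprotein SDHA stood at 122 and 121 CPM in U-937 with DMSO and at 68.5 and 66.4 CPM with both agents, and fell by 0.85 ± 0.09 on the log2 scale (adjusted p = 3.06e-08, edgeR). With ATRA (104 and 107 CPM) or Corin (130 and 120 CPM) alone it was not called, although the ATRA libraries lay below both DMSO libraries. The ATRA change was called lower with DESeq2 (-0.23), library totals (-0.28), the GC trend removed (-0.22) or only the 4 libraries compared (-0.21). The iron-sulphur subunit SDHB (chr1:17018664-17054032, minus strand), whose promoter is printed above, stood at 134 and 135 CPM with DMSO, 92.5 and 92.2 with ATRA, 133 and 106 with Corin and 71.0 and 81.0 with both agents. It fell by 0.55 ± 0.11 with ATRA (adjusted p = 2.23e-04, edgeR) and by 0.83 ± 0.11 with both agents (adjusted p = 3.92e-07, edgeR). The membrane anchors did not follow: SDHC was higher with both agents by 0.24 ± 0.09, from 106 and 105 to 122 and 127 CPM, and SDHD, at 118 and 129 against 121 and 136 CPM, was not called. The SDHC call did not hold when any U-937 DMSO, ATRA or both-agent library was left out (log2 change 0.20 to 0.27). In SKNO-1, Corin lowered SDHA by 0.47 ± 0.10 (from 210 and 167 to 138 and 135 CPM), SDHB by 0.30 (from 78.2 and 69.2 to 60.9 and 58.9 CPM) and SDHD by 0.20. Both agents lowered SDHA by 0.32, SDHB by 0.26 and SDHD by 0.29. The SDHA, SDHB and SDHD calls with Corin did not hold without either Corin library (SDHB -0.33 and -0.28), nor did those of SDHA and SDHB with both agents without either of those libraries (SDHB -0.25 and -0.27), and SDHA was also lost without either Corin library. The SDHA call with Corin has the adjusted p 7.83e-03 (edgeR), and SDHC, at 83.5 and 83.9 CPM with Corin, was not called in SKNO-1.

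Complex I carries electrons from NADH to ubiquinone. Its nuclear members were lower in 16 of 38 tested with Corin and 19 of 38 with both agents in SKNO-1, and in 11 of 38 with ATRA and 18 of 38 with both agents in U-937. Higher calls numbered 8 with ATRA and 5 with both agents in U-937. The shares of all genes lower were 17.3% and 22% in SKNO-1, and 20.1% and 32.2% in U-937, in the same order, with 21.7% and 33.1% higher in U-937.

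NDUFV1 (chr11:67605653-67612554, plus strand), the NADH-binding subunit, had the largest fall in complex I with both agents in U-937. It stood at 87.1 and 74.7 CPM with DMSO, 58.1 and 69.3 with ATRA, 79.5 and 71.0 with Corin and 39.7 and 37.8 with both agents, a fall of 1.06 ± 0.11 (adjusted p = 1.19e-08, edgeR). In SKNO-1 its DMSO libraries were far apart, at 111 and 60.0 CPM, the treated libraries lay at 57.0 to 88.3 CPM, and no call was made. NDUFS3, another core subunit, fell with both agents by 1.03 ± 0.10 in U-937 (72.1 and 73.1 to 34.6 and 36.4 CPM) and by 0.50 ± 0.07 in SKNO-1 (66.6 and 63.0 to 46.5 and 45.3 CPM), and was named after its values were seen. NDUFA6, an accessory subunit, had the largest fall in SKNO-1 with both agents, by 0.90 ± 0.10 (adjusted p = 2.45e-04, edgeR), from 51.9 and 43.1 to 25.6 and 25.3 CPM. NDUFB2 had the largest fall there with Corin among members whose libraries did not overlap with DMSO, by 0.87 ± 0.12, from 38.1 and 31.0 to 18 and 19.7 CPM, while in U-937 it overlapped with DMSO under Corin. NDUFB9 fell with ATRA in U-937 by 0.69 ± 0.11, from 256 and 277 to 161 and 169 CPM. It rose there with Corin by 0.33, to 365 and 307 CPM, a call lost without either DMSO library, either ATRA library or Corin replicate 1 (0.20 without the last). NDUFS4 fell with Corin in U-937 by 0.59 ± 0.11 (adjusted p = 7.80e-04, edgeR), from 35 and 37.1 to 25.5 and 22.1 CPM.

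NDUFC1 (chr4:139266880-139302551, minus strand), a small accessory subunit of the membrane arm, moved in opposite directions in the 2 lines. In U-937 it stood at 17.4 and 16.6 CPM with DMSO, 24.3 and 23.9 with ATRA, 17.8 and 14.7 with Corin and 32.3 and 38.2 with both agents. In SKNO-1 it stood at 21.7 and 18.7, 18.8 and 20.5, 12.4 and 11.5, and 13.3 and 13.4 CPM in the same order. The rise with both agents in U-937 was 1.05 ± 0.12 (adjusted p = 6.28e-08, edgeR), and in SKNO-1 it fell by 0.75 with Corin and by 0.60 with both agents. The estimated effective length of NDUFC1 also grew in U-937, from 664.8 and 672.4 bases with DMSO to 742.8 and 741.8 with ATRA and 853.2 and 873.7 with both agents. It grew in SKNO-1 too, where the count fell, from 609.3 and 627.6 bases with DMSO to 707.6 and 722.4 with Corin. The other nuclear members higher with both agents in complex I of U-937 were NDUFA1, NDUFB1, NDUFA13 and NDUFA4. NDUFA4, which is named as a complex I gene but is associated with complex IV, stood at 122 and 126 CPM with DMSO and at 142 and 172 with both agents. NDUFB1 was the largest rise in complex I with ATRA in U-937, by 0.56 ± 0.12, from 27.6 and 29.6 to 40.3 and 43.8 CPM.

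Complex III, the cytochrome bc1 complex, had 3 and 4 of 9 nuclear members lower in SKNO-1 with Corin and with both agents, and 3 and 5 of 9 in U-937 with ATRA and with both agents, and none higher, against the shares of all genes given for complex I. UQCRH had the largest fall in U-937. It stood at 234 and 236 CPM with DMSO, 169 and 173 with ATRA, 229 and 181 with Corin and 123 and 152 with both agents, falling by 0.46 ± 0.12 with ATRA and by 0.78 ± 0.12 with both agents (adjusted p = 4.34e-06, edgeR). In SKNO-1 UQCRH stood at 371 and 351 CPM with DMSO and at 262 and 263 CPM with both agents, without overlap. UQCRQ, a small subunit next to cytochrome b, had the largest fall in SKNO-1, by 0.57 ± 0.09 with Corin and 0.59 ± 0.09 with both agents, from 108 and 88.5 CPM to 66.8 and 65.2, and 67.3 and 63.8 CPM. In U-937 UQCRQ stood at 28.2 and 28.3 CPM with DMSO and at 22.7 and 27.4 CPM with both agents and was not called in any comparison. UQCRC1, UQCRC2 and UQCRFS1, grouped after their values were seen, were all lower with both agents in U-937, and UQCRC2 and UQCRFS1 were lower in SKNO-1. UQCRFS1, the Rieske iron-sulphur protein, fell by 0.54 ± 0.07 in SKNO-1 and by 0.43 ± 0.11 in U-937.

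Complex IV is cytochrome c oxidase, and its list held the 1 nuclear member that rose in both lines with both agents. COX7A2L (chr2:42333546-42425088, minus strand) is a COX7A relative known for its role in joining complexes III and IV into supercomplexes. In SKNO-1 it stood at 78.8 and 78.4 CPM with DMSO, 72.6 and 75.4 with ATRA, 107 and 104 with Corin and 95.0 and 91.6 with both agents. It rose there by 0.42 ± 0.06 with Corin (adjusted p = 9.73e-04, edgeR) and by 0.25 ± 0.06 with both agents. In U-937 it stood at 109 and 116 CPM with DMSO, 132 and 109 with Corin and 150 and 168 with both agents, and rose with both agents by 0.50 ± 0.10 (adjusted p = 2.03e-04, edgeR). With ATRA alone in U-937, COX7A2L lay below both DMSO libraries and was not called. The both-agent call in SKNO-1 was lost without both-agent replicate 1 (0.22). Its ubiquitous relative COX7A2 fell in SKNO-1 with both agents by 0.69 ± 0.06 (adjusted p = 9.40e-05, edgeR), from 136 and 130 to 82.5 and 81.8 CPM. COX7A2 was also lower in U-937 with Corin, by 0.42 ± 0.12, from 86.6 and 94.1 to 74.8 and 59.9 CPM, a call lost without DMSO replicate 2 (-0.36) or Corin replicate 2 (-0.27).

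Of the other complex IV members, COX6A1, whose promoter is printed above, stood in U-937 at 84.1 and 87.9 CPM with DMSO and at 56.6 and 68.1 CPM with both agents, and fell by 0.47 ± 0.13. COX5B had the largest fall in SKNO-1 with Corin, by 0.52 ± 0.14 (adjusted p = 1.99e-02, edgeR), from 56.7 and 41.8 to 35.9 and 32.8 CPM. That call was lost without either Corin library (-0.59 and -0.46). COX8A rose with ATRA in U-937 by 0.47 ± 0.11, from 68.6 and 65.3 to 85.3 and 100 CPM, a call lost without ATRA replicate 2 (0.34). COX5A fell with ATRA in U-937 by 0.31 ± 0.11, and this call was lost without either DMSO or either ATRA library (-0.28 to -0.36). Of the nuclear complex IV members in SKNO-1, 6 of 11 tested were lower and 1 higher with Corin, with the same counts with both agents. The shares of all genes lower and higher were 17.3% and 20.5% with Corin, and 22% and 24.7% with both agents. In U-937, 1 of 12 was lower and 1 higher with ATRA, and 3 were lower and 2 higher with both agents. These U-937 shares were below those of all genes, 20.1% and 21.7% with ATRA and 32.2% and 33.1% with both agents.

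Complex V had 10 and 12 of 20 members lower in SKNO-1 with Corin and with both agents, and 4 and 10 of 19 lower in U-937 with ATRA and with both agents. The ATRA share in U-937 was near the 20.1% of all genes lower there, and the other shares compare with 17.3%, 22% and 32.2%. The c-ring, the rotor through which protons pass, is made of a single mature protein that 3 genes encode, ATP5MC1, ATP5MC2 and ATP5MC3. ATP5MC1 (chr17:48892765-48895871, plus strand) stood in U-937 at 53.0 and 58.8 CPM with DMSO, 34.5 and 35.4 with ATRA, 58.6 and 44.1 with Corin and 13.4 and 15.6 with both agents. It fell by 0.68 ± 0.12 with ATRA (adjusted p = 1.08e-04, edgeR) and by 1.95 ± 0.13 with both agents (adjusted p = 1.15e-11, edgeR), the largest fall of any nuclear member tested there. ATP5MC2 stood at 143 and 148 CPM with DMSO and at 122 and 143 with both agents, and was not called in any comparison with DMSO. ATP5MC3 stood at 379 and 395 CPM with DMSO and at 274 and 323 with both agents, and fell by 0.37. Within the summed TPM of the 3 genes, the ATP5MC1 share in U-937 was 13.8 and 14.2% with DMSO, 9.88 and 10.2% with ATRA, 14.9 and 13.9% with Corin and 4.76 and 4.88% with both agents.

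In SKNO-1, ATP5MC1 stood at 75.7 and 61.9 CPM with DMSO, 71.7 and 72 with ATRA, 50.8 and 47.0 with Corin and 48.2 and 49.3 with both agents. It fell by 0.49 ± 0.10 with Corin and by 0.50 with both agents, and the Corin call was lost without Corin replicate 2 (-0.44). Its share of c-ring TPM was 21.7 and 20.7% with DMSO and 17.3 and 17.6% with both agents. In the F1 head, which makes ATP, the α subunit ATP5F1A fell with both agents by 0.74 ± 0.12 in U-937 and by 0.45 ± 0.05 in SKNO-1, and the β subunit ATP5F1B by 0.55 ± 0.12 and 0.31 ± 0.06. The ε subunit ATP5F1E went the other way in U-937: it stood at 118 and 119 CPM with DMSO, 154 and 163 with ATRA, 147 and 121 with Corin and 197 and 230 with both agents, rising by 0.42 ± 0.11 and 0.85 ± 0.11 (adjusted p = 2.31e-07, edgeR) with ATRA and with both agents. In SKNO-1 ATP5F1E stood at 177 and 151 CPM with DMSO and at 156 and 152 CPM with both agents, overlapping. ATP5MD, a small membrane subunit also named ATP5MK, had the largest fall of complex V in SKNO-1 with both agents, by 0.64 ± 0.06, from 127 and 120 to 79.0 and 79.5 CPM.

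**Figure D3:**
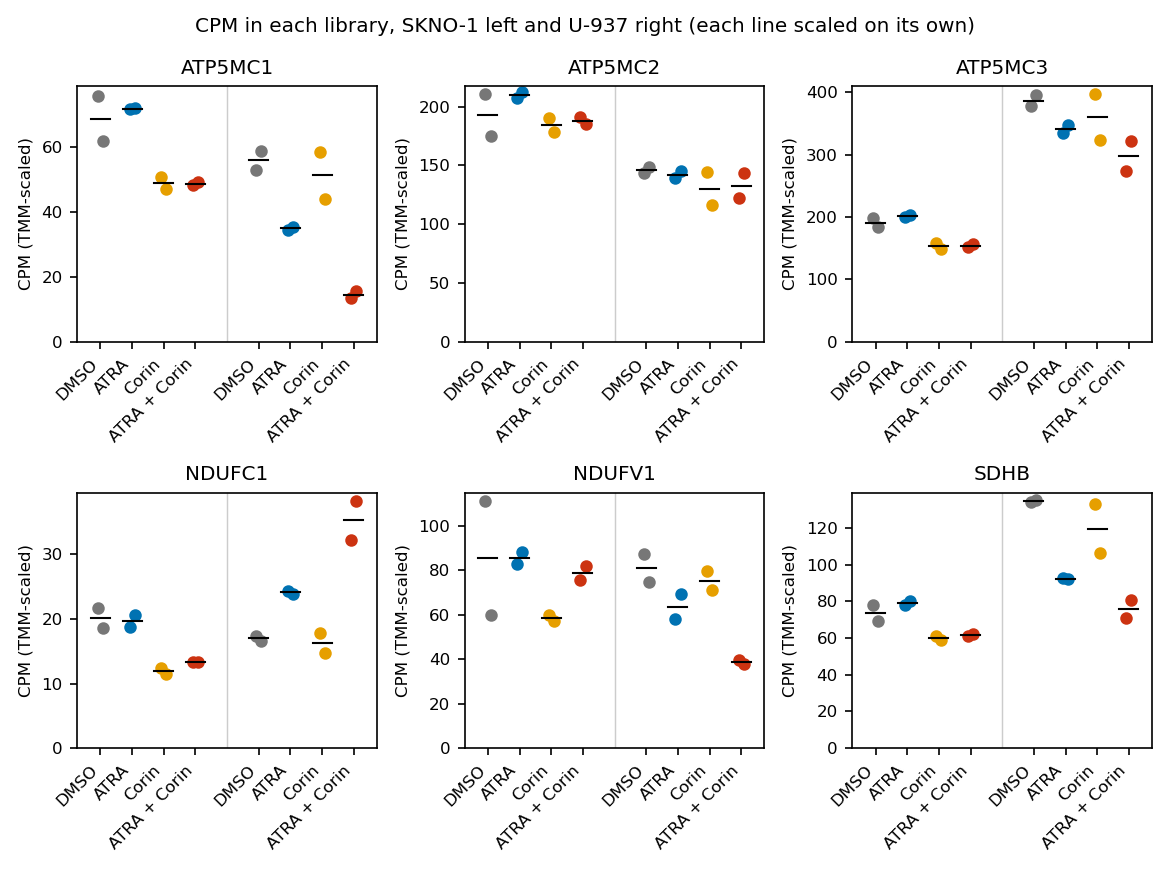
TMM-scaled CPM in each library of ATP5MC1, ATP5MC2, ATP5MC3, NDUFC1, NDUFV1 and SDHB, by line and treatment, each point 1 library and each bar the mean of a group. ATP5MC1 falls to 13.4 and 15.6 CPM in U-937 with both agents while ATP5MC2 stays at 122 and 143, and NDUFC1 rises to 32.3 and 38.2 CPM there while it falls in SKNO-1.

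With both agents, 44 nuclear members were lower in SKNO-1 and 38 in U-937, and 27 of these were lower in both lines, which is 61.4% of the SKNO-1 list and 71.1% of the U-937 list. Over all genes, 2297 were lower in both lines, which is 59.7% of those lower in SKNO-1 and 40.2% of those lower in U-937. The 27 nuclear members included SDHA and SDHB, the complex I core subunits NDUFS1, NDUFS3 and NDUFV2, and UQCRC2 and UQCRFS1 of complex III. Among them were also ATP5F1A and ATP5F1B, and the peripheral stalk subunits ATP5PB, ATP5PF and ATP5PO. NDUFA1, NDUFA4 and NDUFC1 were lower in SKNO-1 and higher in U-937, and COX7A2L, as above, was higher in both. The difference in effect between lines was called for 27 nuclear members, 15 with a higher effect in U-937 and 12 with a lower one, where 17.9% and 22.7% of all 19872 genes tested were higher and lower. ATP5MC1 had the largest negative difference of the nuclear members with a mean of at least 5 CPM, -1.41 ± 0.17 (adjusted p = 2.37e-06, edgeR), and NDUFC1 the largest positive one, 1.69 ± 0.17 (adjusted p = 1.95e-07, edgeR). ATP5F1E differed by 0.98 ± 0.14 and NDUFV1 by -0.91 ± 0.29, the latter lost without SKNO-1 both-agent replicate 2 (-0.85) and on leaving out 10 other libraries (to -0.79 at the smallest among these). SDHA differed by -0.49, SDHB by -0.53 and SDHD by 0.40. Without SKNO-1 DMSO replicate 1 the count lower was 25, and it was 6 without U-937 both-agent replicate 1.

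For the single agents the lines also differed. The effect of Corin was higher in U-937 for 7 nuclear members and lower for none, where 5.28% and 7.49% of all genes were higher and lower; edgeR found 0 lower, with the count by DESeq2 also 0. These 7 were SDHA (0.50), NDUFB2 (0.79 ± 0.17), NDUFB9 (0.76 ± 0.14), NDUFC1, NDUFS6, UQCRQ and NDUFA6. The count was 30 without SKNO-1 DMSO replicate 2 and 2 without SKNO-1 Corin replicate 2. The effect of ATRA differed for 10 nuclear members, 4 higher and 6 lower in U-937, where 10.6% and 8.81% of all genes were higher and lower. ATP5MC1 (-0.70 ± 0.17) and SDHB (-0.61 ± 0.14) had the largest negative differences, and NDUFC1 (0.58) and NDUFB1 (0.58) the largest positive ones. Leaving out each of the 16 libraries in turn lost the NDUFC1 call in 11 cases and the NDUFB1 call in 8, NDUFC1 falling to 0.42 without SKNO-1 DMSO replicate 1 and NDUFB1 to 0.43 without SKNO-1 ATRA replicate 1. Comparisons within a line share the DMSO libraries, so values for the same gene are given side by side without a correlation.

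**Figure D4:**
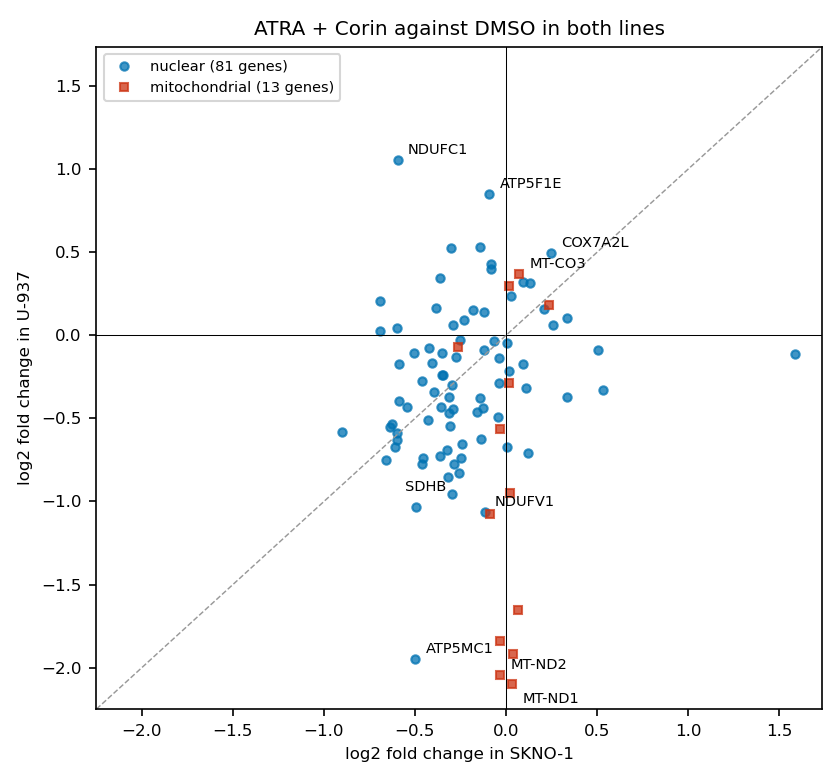
Log2 fold change with both agents in U-937 against that in SKNO-1 for the 81 nuclear and 13 mitochondrial members tested in both lines, 1 point a gene, with a dashed line where both would be equal. Many nuclear points lie below 0 on both axes; MT-ND1 at -2.10 and ATP5MC1 at -1.95 are the lowest in U-937 of their classes, and NDUFC1 is above 0 in U-937 and below 0 in SKNO-1.

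Whether the agents acted more than additively was tested as the log2 effect of both minus the sum of the single effects. In U-937 this term was called for 13 of 82 nuclear members, 4 higher and 9 lower, where 8.09% of all genes were higher and 15.3% lower. ATP5MC1 had the largest negative term, -1.15 ± 0.18 (adjusted p = 3.49e-05, edgeR), since Corin alone (58.6 and 44.1 CPM) overlapped with DMSO and ATRA alone lowered it by 0.68. NDUFB10, an accessory complex I subunit, had a term of -0.86 ± 0.16: it stood at 34.1 and 36.0 CPM with DMSO, 33.3 and 37.7 with ATRA, 39.8 and 35.3 with Corin and 19.9 and 22.2 with both agents. SDHA had a term of -0.68 (adjusted p = 4.13e-04, edgeR) and NDUFV1 one of -0.61. NDUFC1 (0.61 ± 0.17) and COX7A2L (0.54 ± 0.15) had the largest positive terms. The NDUFC1 term was not called without DMSO replicate 1 (0.57), Corin replicate 2 (0.47) or both-agent replicate 2 (0.48), nor the COX7A2L term without Corin replicate 2 (0.41). Of the mitochondrial members 0 were called in edgeR, with 1 lower call in DESeq2 and 4 lower without DMSO replicate 1. In SKNO-1 edgeR and DESeq2 called 0 nuclear and 0 mitochondrial members, where edgeR called 0.315% of all genes higher and 0.149% lower. At an unadjusted p under 0.05 (edgeR) were 12 of 82 nuclear and 0 of 13 mitochondrial members, and 2481 of all 17479 genes. Without SKNO-1 DMSO replicate 2, 28 nuclear members were higher.

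The summed TPM of the 13 mitochondrial members over that of the 89 nuclear members gives the balance of both classes within a library. In SKNO-1 it was 0.827 and 1.03 with DMSO, 0.907 and 0.837 with ATRA, 1.23 and 1.26 with Corin and 1.26 and 1.17 with both agents. The Corin and combination libraries lay above both DMSO libraries. In U-937 it was 1.22 and 1.02 with DMSO, 1.19 and 1.08 with ATRA, 1.01 and 1.17 with Corin and 1.34 and 1.25 with both agents. MT-CO1 and MT-CO3 dominate this sum, so medians in place of sums turned the U-937 result: the log2 change of the ratio with both agents was 0.22 from sums and -1.43 from medians, and with ATRA 0.02 and -0.64. In SKNO-1 with Corin it was 0.43 from sums and 0.25 from medians. The SKNO-1 ratio from medians was 2.09 and 3.59 with DMSO, 3.10 and 3.42 with Corin and 3.86 and 2.91 with both agents. Both treatments thus overlapped with DMSO by that measure. The median log2 change of nuclear members exceeded that of mitochondrial members by 0.67 in U-937 with both agents, and by 0.39 without DMSO replicate 1. It was below it by 0.33 in SKNO-1 with Corin and 0.31 with both agents (difference 0.08 and 0.04 without SKNO-1 DMSO replicate 1). Per library, the nuclear minus mitochondrial median log2 CPM had a pooled SD of 0.27 between libraries of a group. That is a spread of single libraries and not of the differences in change above.

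**Figure D5:**
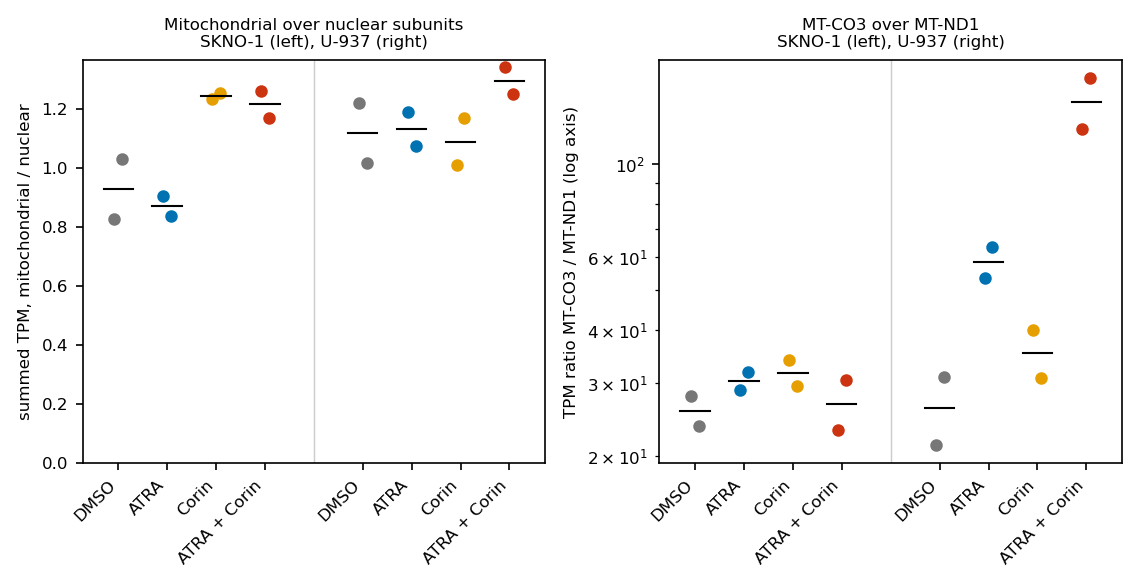
Summed TPM of mitochondrial over nuclear members, and the TPM ratio of MT-CO3 to MT-ND1 on a log axis, in each of the 16 libraries by line and treatment, with bars at group means. The first ratio stays between 0.827 and 1.34, and the second reaches 121 and 160 in U-937 with both agents while SKNO-1 stays between 23.1 and 34.0.

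Between the untreated lines, 24 nuclear members were higher in U-937 and 34 lower, where 31.7% and 33.1% of all genes were higher and lower, and 4 mitochondrial members were called in each direction. MT-ND4 was higher in U-937 by 1.28 ± 0.25 on the log2 scale and MT-ND4L by 1.07 ± 0.21, MT-ATP6 by 0.43 and MT-CO3 by 0.28. MT-ND6 was lower, with a log2 change of -1.31 ± 0.15, as were MT-ND3 at -0.80, MT-CO2 at -0.48 and MT-ATP8 at -0.40. Without SKNO-1 DMSO replicate 1 the higher mitochondrial count was 2, and without U-937 DMSO replicate 2 it was 7. Among nuclear members, SDHB (0.75 ± 0.10) and ATP5MC3 (0.89 ± 0.10) were higher in U-937, and SDHA (-0.75 ± 0.09) and UQCRQ (-1.92 ± 0.12) were lower.

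Genes that build and serve the complexes were counted from lists chosen with earlier results of these data known, and no list was tested as a set. The shares of all genes to read them against are 17.3% lower with Corin in SKNO-1, 20.1% lower with ATRA in U-937, and, with both agents, 22% lower and 24.7% higher in SKNO-1 and 32.2% lower and 33.1% higher in U-937. Of 78 mitochondrial ribosome proteins tested, 43 were lower in SKNO-1 with Corin and 43 with both agents, and 50 and 60 were lower in U-937 with ATRA and with both agents, with a median of -0.75 in the last. MRPS2 had a log2 change of -2.22 ± 0.15 there, while MRPS6 rose by 1.85. Of 29 genes for mitochondrial DNA expression and upkeep, 22 were lower and 1 higher in U-937 with both agents (median -0.93), and 18 were lower and 2 higher in SKNO-1. TWNK, the mitochondrial DNA helicase, fell by 2.27 ± 0.11 and PNPT1, which degrades mitochondrial RNA, by 1.97 ± 0.11 in U-937, while TEFM, the mitochondrial transcription elongation factor, rose by 0.50. Of 47 assembly factors, 29 were lower and 7 higher in U-937 with both agents and 24 and 2 in SKNO-1: NDUFAF2, which acts late in complex I assembly, fell by 2.28 ± 0.15 in U-937, and SURF1, which acts on complex IV, rose by 1.19 in U-937 and 0.73 in SKNO-1. With ATRA alone in SKNO-1 the ribosome, DNA expression and assembly lists each had 1 gene higher and none lower. The shares of all genes there were 2.96% higher and 3.79% lower. Corin alone in U-937 lowered 3, 1 and 3 genes of these lists, where 4.4% of all genes were lower.

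Upstream and neighbouring pathways were counted with both agents, against the same shares of all genes. Of 21 tricarboxylic acid cycle genes, 14 were lower in SKNO-1 and 16 in U-937, with FH, the fumarate hydratase, falling by 1.58 ± 0.11 in U-937. Of the electron carriers and other respiratory proteins, 13 of 24 were lower and 1 higher in SKNO-1 and 17 of 23 lower and 3 higher in U-937, where COQ3 of ubiquinone synthesis fell by 2.58 ± 0.20 and ETFDH, which feeds electrons from fatty acids to ubiquinone, rose by 1.04. Glycolysis genes were mixed, with 6 lower and 3 higher of 19 in SKNO-1 and 12 lower and 5 higher of 20 in U-937; LDHA fell by 0.92 ± 0.05 and 1.68 ± 0.11. Among 15 regulators of nuclear respiratory genes, 6 were lower and 1 higher in SKNO-1 and 10 lower and 3 higher in U-937. MYC fell by 5.55 ± 0.12 in U-937, GABPA by 0.77 ± 0.15 in SKNO-1, and TFEB, a lysosome and autophagy regulator, rose by 4.21 in SKNO-1 and 1.79 in U-937. Of the proliferation genes, 20 of 20 were lower in U-937 with both agents (median -2.13) and 12 lower and 1 higher in SKNO-1, where Corin alone lowered 14 and raised 1. With ATRA in U-937, where 20 nuclear and 5 mitochondrial members were lower, 6 proliferation genes were lower and 3 higher. Their part in the results on the subunits was not tested. The mitochondrial rRNAs MT-RNR1 and MT-RNR2 rose in SKNO-1 with both agents, by 0.80 ± 0.25 and 1.05 ± 0.19, and MT-RNR2 rose by 0.41 ± 0.15 in U-937.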

How the data were processed

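RNA sequencing of total RNA (stranded total RNA kit, per the labels' protocols) was analysed in 16 libraries. Trimmomatic, STAR, RSEM, deepTools and DESeq2 are named with build hg38, per the submitters' processing notes, without versions; whether counting used strand is not given in the sources used here. The authors deposited a table of estimated counts per gene (20.4% of positive values not whole), single-library tables with estimated counts and TPM, and tables of their own comparisons with log2 fold changes and p-values. The deposited count table and the single-library tables agreed to a difference of 0. Effective lengths were 99.68 bases below length, as for single reads of that order, per the deposited single-library tables. The labels' extract protocol names paired-end sequencing instead, so the read layout is not settled here.

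Estimated counts were rounded (library totals changed by at most 42.03) and tested with edgeR 4.0.16 in R 4.3.3 (TMM scaling, filterByExpr, robust quasi-likelihood F test) over the 8 libraries of a line (4 residual degrees of freedom), or all 16 for differences between lines. The SKNO-1 fit tested 17479 genes, the U-937 fit 17717 and the joint fit 19872, with p adjusted by Benjamini-Hochberg over all of them at 0.05. The SE is the log2 change divided by the square root of F. limma 3.58.1, DESeq2 1.42.0, Python 3.11.15 and pandas 2.3.3 were also used, and the test was checked on simulated data. Library totals were 28.4 to 37.8 M counts, with 2 libraries per group. Members named with values are the mitochondrial genes, complex II, isoform pairs and the c-ring, and per complex and comparison the called nuclear member with the largest rise and fall (mean of at least 5 CPM, treated libraries beyond both DMSO libraries), plus the 2 largest in each direction for non-additivity and line differences; others were chosen after their values were seen. Members and lists were chosen with earlier results of these data known. Alternatives changed scaling, filter, tool, GC trend, replicate block, libraries fitted and single libraries left out. Gene positions are from GENCODE 44.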

Additional observations from a re-analysis of the deposited data

Results flagged for a closer look

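Each value here is the log2 effect of an agent in U-937 minus its effect in SKNO-1, tested as an interaction over all 16 libraries, with the adjusted p from edgeR. What flagged each is that the 2 lines differed by this test. For ATRA, the differences were -0.70 for ATP5MC1 (adjusted p = 5.85e-03), -0.61 for SDHB (3.89e-03), 0.58 for NDUFB1 (1.95e-02) and 0.58 for NDUFC1 (2.04e-02). For Corin, they were -0.48 for MT-ND3 (4.41e-02), 0.50 for SDHA (1.26e-02), 0.76 for NDUFB9 (1.01e-03) and 0.79 for NDUFB2 (4.46e-03). MT-ND3 was higher with Corin in SKNO-1, and stood at 145 and 116 CPM against 161 and 138 with DMSO in U-937.

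With both agents, mitochondrial members differed by -2.09 for MT-ND1 (adjusted p = 2.30e-04, edgeR), -1.97 for MT-ND2 (7.50e-04), -1.91 for MT-ND4L (3.27e-04), -1.76 for MT-ND5 (1.59e-02), -1.67 for MT-ND4 (3.11e-03), -0.94 for MT-CYB (3.39e-02) and -0.92 for MT-ATP6 (8.10e-03). Nuclear members differed by -1.41 for ATP5MC1 (2.37e-06), -0.91 for NDUFV1 (2.82e-02), -0.53 for SDHB (5.19e-03), -0.49 for SDHA (4.12e-03), 0.40 for SDHD (1.93e-02), 0.98 for ATP5F1E (1.60e-05) and 1.69 for NDUFC1 (1.95e-07). The mitochondrial medians of the 2 DMSO libraries differed by 0.53 in U-937 and by -0.30 in SKNO-1 (replicate 1 minus replicate 2), and the part of this in the line differences of the mitochondrial members was not tested beyond leaving out each library.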

How the results depend on the processing

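Changes in counts of calls are given here, and changed calls of named genes here or beside the gene in the report. For each the cause was not tested unless the alternative itself removed samples. The shares of all genes called under each alternative are not given, so these counts show only how the calls depend on processing. With no low-count filter, ATRA in SKNO-1 lowered 7 mitochondrial members, both agents raised 4 nuclear members there, and non-additivity there was higher for 8 nuclear and 6 mitochondrial members; in U-937 the mitochondrial members lower were 8 with ATRA, 4 with Corin and 3 for non-additivity, 1 was higher with both agents, and 1 had a higher both-agent effect than in SKNO-1. With library totals alone as the scale, the nuclear members lower in U-937 were 35 with ATRA, 6 with Corin and 16 for non-additivity, 1 mitochondrial member was higher with both agents, and the line differences were lower for 16, 1 and 21 nuclear members with ATRA, Corin and both agents; that scale moved the median of all genes for the line difference with both agents from -0.11 to -0.27 and that between untreated lines from -0.01 to 0.15. With DESeq2, 1 nuclear member was higher with both agents in SKNO-1, the U-937 mitochondrial members lower were 8 with ATRA, 1 with Corin and 1 for non-additivity, 1 had a lower ATRA effect in U-937, and 2 had a higher both-agent effect. With the GC trend removed, and also with the replicate block and the GC trend together, ATRA in SKNO-1 raised 2 nuclear members and lowered 1 mitochondrial member, the line difference for ATRA was lower for 10 nuclear members, and that for Corin for 0 mitochondrial members. With only the 4 libraries compared, Corin in SKNO-1 lowered 16 nuclear members and raised 0 mitochondrial ones, both agents there raised 1 nuclear and 0 mitochondrial members, ATRA in U-937 lowered 1 mitochondrial member and Corin there raised 2 nuclear members. Medians in place of sums gave log2 changes of the mitochondrial to nuclear ratio of -0.30 with ATRA and 0.25 with Corin in SKNO-1, and of -0.64, -0.37 and -1.43 with ATRA, Corin and both agents in U-937.

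Among named genes in U-937 with both agents, SDHC was not called with library totals (0.11), no filter (0.20) or only 4 libraries (0.21), nor MT-CO2 with library totals (0.17) or no filter (0.26). In SKNO-1 with only 4 libraries, Corin calls were lost for SDHA (-0.46), SDHB (-0.29), SDHD (-0.19), COX5B (-0.51), MT-ND3 and MT-CO3 (0.26), and both-agent calls for SDHA (-0.31), SDHB (-0.25), COX7A2L (0.25) and MT-ND3 (0.24). There the both-agent call of SDHB was also lost with the GC trend removed (-0.19), and the Corin call of SDHD with library totals (-0.15). With the GC trend removed, ATRA raised SDHD there (0.16) and Corin raised MT-CO2 (0.18, and 0.17 with no filter). With no filter, Corin in U-937 lowered MT-ND1 (-0.48), MT-ND2 (-0.53), MT-ND4 (-0.56) and MT-ND4L (-0.54), and ATRA lowered MT-ND5, MT-CYB and MT-ATP8 (-0.39); DESeq2 also called MT-ND1 lower with Corin (-0.49). The NDUFB9 rise with Corin in U-937 was lost with the replicate block (0.34).

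The labels do not say what a replicate number shares. Deviations of same-numbered libraries correlated at -0.50 to 0.43 across 9533 genes, so the numbers were not taken to pair the samples. With the replicate block, 1 nuclear member was higher with both agents in SKNO-1, 0 were higher with Corin in U-937, and 0 mitochondrial members had a lower Corin effect in U-937; both agents lowered 42 nuclear members in SKNO-1 and 36 in U-937 with the block.

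Leaving out each library in turn gave these ranges, without the shares of all genes called in the same refits. An arm left with 1 library is assumed to vary like the other groups. In SKNO-1, nuclear members higher ranged from 0 to 20 with ATRA, 1 to 4 with Corin and 0 to 19 with both agents, and lower from 0 to 40, 17 to 67 and 31 to 68. Mitochondrial members there were lower in 0 to 4 cases with ATRA and 0 to 1 with both agents, and higher in 0 to 4 with Corin and 0 to 2 with both agents. Non-additivity there ranged from 0 to 28 higher and 0 to 6 lower nuclear members. In U-937, nuclear members higher ranged from 4 to 10, 0 to 2 and 5 to 11, and lower from 10 to 24 with ATRA and 1 to 5 with Corin; mitochondrial members lower ranged from 5 to 8 with ATRA and 0 to 6 with Corin, and higher from 0 to 3 with both agents. Non-additivity there ranged from 0 to 7 higher and 5 to 18 lower nuclear members, and from 0 to 1 higher and 0 to 4 lower mitochondrial members. Line differences ranged for ATRA from 0 to 10 nuclear members higher, 5 to 18 lower and 0 to 4 mitochondrial members lower; for Corin from 2 to 30 nuclear higher, 0 to 1 lower and 0 to 1 mitochondrial lower; and for both agents from 10 to 23 nuclear higher, 6 to 25 lower and 0 to 2 mitochondrial higher. Untreated lines differed in 2 to 7 mitochondrial members higher. The nuclear minus mitochondrial median ranged from -0.062 to 0.47 with ATRA and -0.57 to -0.035 with both agents in SKNO-1, from -0.00068 to 0.51 with ATRA and 0.39 to 0.91 with both agents in U-937, from -0.26 to 0.35 for non-additivity there, from 0.28 to 0.78 and 0.59 to 1.24 for the line differences with Corin and both agents, and from -0.68 to -0.049 between untreated lines. The SDHA change with ATRA in SKNO-1, which was not called, ranged from -0.14 (adjusted p = 0.0185, edgeR, without DMSO replicate 2) to 0.19 (without DMSO replicate 1).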

Other observations

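The authors' deposited tables of their own comparisons list 84 to 86 of the 89 nuclear members and the 13 mitochondrial members. The shares of all genes called in those tables are not given here, so the counts that follow are not a result about the members. At an adjusted p under 0.05 in the authors' deposited table, 22 nuclear members were lower and 1 higher in SKNO-1 with Corin, and 35 lower and 0 higher with both agents. In U-937 the authors' deposited tables held 24 lower and 9 higher with ATRA, 3 and 1 with Corin and 37 and 8 with both agents. Of the mitochondrial members, they held 6 lower with ATRA and 9 lower and 2 higher with both agents in U-937. The authors' deposited median log2 change of the mitochondrial members in U-937 with both agents was -0.97.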
